A study of Mus musculus with 12 samples.

Results

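The HoxB cluster was examined by its 10 homeobox genes, Hoxb1 to Hoxb9 and Hoxb13, chosen by gene symbol among the 24946 genes measured and described in their order along the chromosome. RNA sequencing was performed on embryoids and on controls at D7 and D8 after aggregation, with 3 libraries in each of the 4 groups. All 12 libraries were labelled as made from E14TG2a, a mouse embryonic stem cell line of the 129/ola strain that had been kept with LIF, Chir99021 and PD03259021 and then aggregated in hanging drops in medium with N2 and B27. At D3, embryoids were formed by merging an untreated aggregate of 100 cells with an aggregate of 50 cells that had received BMP4 for 8 h, whereas in controls neither aggregate had received BMP4. The labels give 12 embryoids per pool and 10 ng/ml of BMP4, and the methods text differs from them in the pool size and in the unit of the dose. By its design the comparison of embryoids with controls addressed the BMP4-instructed aggregate, although the libraries may also differ in line or clone (described with the library values), and the comparison of D8 with D7 addressed how the cluster changed over the last day of culture.

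Hox genes encode homeodomain transcription factors that give cells their position along the antero-posterior axis. In vertebrate embryos the genes of a cluster are activated in order from the Hoxb1 end, and genes nearer that end are expressed further anteriorly, so that Hoxb1 is best known for the fourth rhombomere of the hindbrain and Hoxb9 for the trunk. Retinoic acid acts on genes at the Hoxb1 end, CDX proteins act on genes of the middle and posterior part, and PBX and MEIS proteins bind DNA together with HOX proteins.

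In the mouse genome (GRCm38, the assembly also called mm10), the 10 genes lie on chromosome 11 between positions 96194316 and 96368256, a span of 174 kb, all on the plus strand. Hoxb1 (96365752 to 96368256) and Hoxb9 (96271457 to 96276595) bound a compact block of 96.8 kb, and Hoxb13 (96194316 to 96197447) stands 74.0 kb beyond Hoxb9. Reference promoters of the same assembly from RefSeq matched 3 of the 10 genes, Hoxb1, Hoxb4 and Hoxb8. Those of Hoxb1 and Hoxb8 are printed because Hoxb1 had the lowest D8 to D7 ratio of the 9 genes tested and Hoxb8 the smallest spread between libraries. The Hoxb1 sequence is chr11:96365508-96365757 and the Hoxb8 sequence is chr11:96281655-96281904, both plus strand, 250 bases up to the RefSeq transcript start. Capitals mark matches on either strand to TGATNNAT, a motif of PBX with HOX proteins, and to TTTATNG, a motif of CDX proteins.
Hoxb1: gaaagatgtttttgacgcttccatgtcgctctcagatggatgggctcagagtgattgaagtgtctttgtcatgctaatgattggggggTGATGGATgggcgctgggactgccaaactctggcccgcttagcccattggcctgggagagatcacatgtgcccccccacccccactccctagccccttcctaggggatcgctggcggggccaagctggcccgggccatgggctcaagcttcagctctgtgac
Hoxb8: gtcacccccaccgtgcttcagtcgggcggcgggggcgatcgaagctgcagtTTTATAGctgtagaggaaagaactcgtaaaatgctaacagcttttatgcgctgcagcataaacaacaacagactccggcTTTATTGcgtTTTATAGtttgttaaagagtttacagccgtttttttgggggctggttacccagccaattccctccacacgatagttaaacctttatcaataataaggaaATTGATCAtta
The Hoxb1 window held 1 match to TGATNNAT, 162 bases before the start, and no match to TTTATNG. The Hoxb8 window held 3 matches to TTTATNG and 1 to TGATNNAT. Of the 32851 promoter windows of this length, 7.68% held TGATNNAT and 9.81% held TTTATNG, and the matched motifs did not overlap each other. The retinoic acid receptor motif AGGTCA was found once in the Hoxb4 window and in 14% of all windows, and its direct repeat with a spacer of 5 bases was in none of the 3. These matches describe letters and were not measured as binding.

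Each library holds whole numbers with a sum of 997897 to 998433. The values were taken to be TPM (transcript abundance corrected for gene length and scaled to a common total) rounded by the authors, so that levels can be compared between genes of different length, the read depth is unknown, and each value carries a rounding error of up to 0.5. Libraries of one group correlated with r between 0.989 and 0.995 across all genes. Embryoid D7 replicate 2 stood apart in composition, with a median-of-ratios size factor of 0.822 against 0.943 to 0.953 in the other embryoid libraries and 18.7% of its total in ribosomal protein genes against 15.6% to 16.8%. Library names began with WT in the controls and with E14 in the embryoids, and Hprt, a purine salvage gene that E14TG2a is generally described as lacking, was listed at 32 to 36 in the controls and at 0 or 1 in the embryoids. A difference of line or clone and the BMP4-instructed aggregate cannot be told apart in any comparison of embryoids with controls. Nothing in the labels says that libraries of a group came from separate cultures, although a figure legend calls them biologically independent, so the spread between them may be partly technical.

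HoxB transcripts were found in embryoids and not in controls. Each of the 10 genes was listed at 0 in all 6 controls, and Hoxb1 to Hoxb9 were between 5 and 136 in all 6 embryoid libraries. Hoxb13 was listed at 0 in 5 embryoid libraries and at 1 in Embryoid D8 replicate 3, and was too low to be tested. Summed over the 10 genes, the D7 libraries reached 315, 290 and 324, whereas the D8 libraries reached 300, 294 and 294. The sums of the days overlapped and stayed within a narrow band, and the lowest was that of the D7 library with the low size factor.

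**Figure D1:**
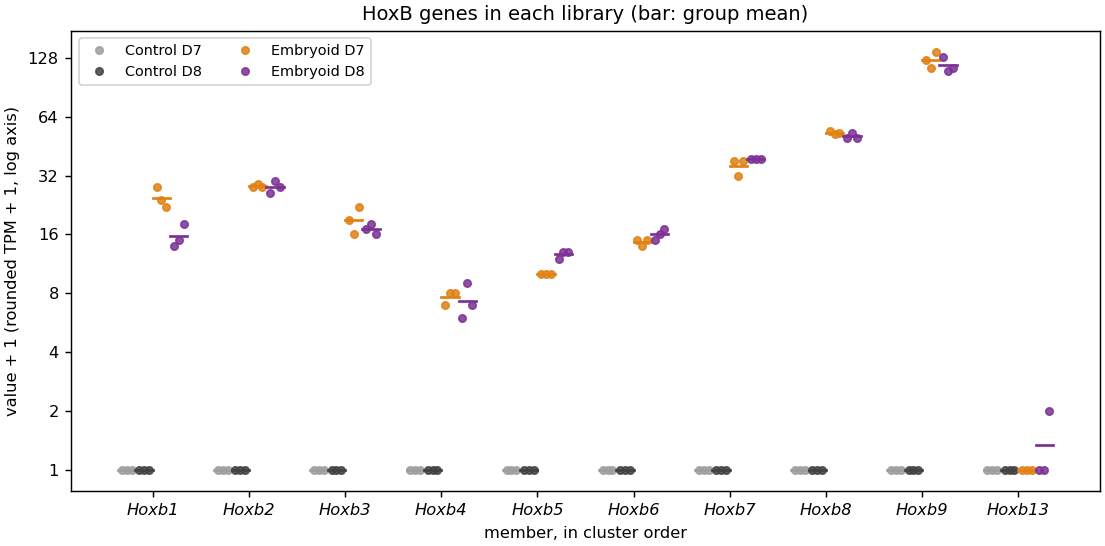
Value plus 1 (rounded TPM plus 1, log axis) of the 10 HoxB genes in each of the 12 libraries, in cluster order, with a bar at each group mean. All control points lie at a value of 0, Hoxb9 is the highest gene on both days, and Hoxb1 is lower at D8 (13 to 17) than at D7 (21 to 27).

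All 9 tested HoxB genes were called higher in embryoids than in controls on both days by limma, with Benjamini-Hochberg adjusted p-values between 1.85e-13 and 1.52e-08 at D7 and between 2.06e-13 and 1.55e-08 at D8. Calling a gene required both an adjusted p below 0.05 and a log2 fold change beyond 1 in size, on the log2(value + 1) scale. Of all 13751 genes tested, 7.56% were called higher and 8.33% lower at D7, with 10.2% higher and 9.61% lower at D8. With all controls at 0, the 9 genes passed the filter on low values only through the embryoids, where they are high, so they had to differ and the calls add nothing to the values themselves. No fold is given, and groups at 0 add no spread to the fit, so the p-values may be too small. All genes together were split into 1040 higher and 1145 lower at D7 (1303 and 861 with median-of-ratios scaling) and into 1398 and 1322 at D8 (1603 and 998), and that scaling moved the median difference of all genes from -0.19 to 0.01 at D7 and from -0.18 to 0.02 at D8. In bulk RNA, fewer cells of a type and less RNA per cell cannot be told apart.

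The genes that were listed at 0 in all controls and above 1 in all embryoid libraries made up 1.08% of the table, and Hoxb1 to Hoxb9 were among them. Embryoids also differed from controls in markers of several tissues. All 9 lateral plate and heart markers tested were called higher on both days, with a summed value of 0 or 1 in controls and of 303 to 793 at D7. Markers of any list at 0 in all controls passed the filter on low values only through the embryoids. As for the HoxB genes, they could only come out higher, and their calls add nothing to the values. Gut endoderm markers were called higher for 8 of 9 at D7 and 9 of 9 at D8, tail bud markers for 5 of 8 on both days, and paraxial mesoderm markers for 6 of 7 at D7 and 4 of 7 at D8, where 1 (Uncx, named after its values were seen) was called lower. Of the 8 tail bud markers, 1 was called lower on each day, a different gene at D7 and at D8. Over the alternatives the paraxial count ran from 2 to 7 at D7 and from 1 to 5 at D8, the tail bud count from 4 to 5 and from 2 to 5, the gut count from 5 to 9 on both days, and the lateral plate and heart count from 5 to 9 and from 7 to 9. Hindbrain and spinal cord markers were split, with 4 of 13 called higher and 4 lower at D7, and 5 higher and 4 lower at D8. The higher count ran from 1 to 5 and from 2 to 6 over the alternatives, and the lower count from 3 to 5 and from 2 to 4. Their sum was 266 to 306 in controls, against 93 to 151 in D7 and 155 to 215 in D8 embryoids. The largest part of the control sum was Sox2 (110 to 141), which also marks neural progenitors. Olig3, Nkx6-1 and Atoh1 were at 0 in all controls and at 6 to 27, 2 to 6 and 1 to 13 in embryoids. The sum is therefore no measure of hindbrain and spinal cord alone. All 5 forebrain markers tested were called lower on both days, with sums of 388 to 435 in controls and of 5 to 11 in embryoids, and the part of these cell types in the HoxB difference was not tested.

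At the anterior end of the cluster, Hoxb1 was the member that differed most between the days. Hoxb1 is needed for the identity of the fourth rhombomere and is kept on by HOX proteins with PBX partners. In the D7 embryoids its values were 27, 23 and 21, whereas the D8 embryoids gave 13, 14 and 17. The 3 D8 libraries were all below the 3 D7 libraries, and the mean was 23.7 ± 3.06 (SD, n = 3) at D7 and 14.7 ± 2.08 (SD, n = 3) at D8, a ratio of 0.620. In limma on the 6 embryoid libraries the D8 to D7 difference was -0.66 on the log2 scale (SE 0.13, 95% interval -0.97 to -0.34, adjusted p = 0.0402). Hoxb1 passed the adjusted p but not the minimum fold and was therefore not called. The adjusted p was between 0.0534 and 0.136 when any 1 of the 6 libraries was left out, and 0.107 with the replicate number as a block. Hoxb1 made up 6.48% to 8.57% of the HoxB sum at D7 and 4.33% to 5.78% at D8. Since that sum varied little (290 to 324 at D7 and 294 to 300 at D8), these shares restate the same values. The window with the TGATGGAT match printed above is the promoter of this gene.

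Hoxb2, which acts in the hindbrain downstream of Egr2, had values of 27, 28 and 27 on D7, followed by 25, 29 and 27 on D8. The days overlapped almost completely (log2 difference -0.02, 95% interval -0.21 to 0.17). Hoxb3, which patterns the posterior hindbrain and the pharyngeal region, had values of 18, 15 and 21 on D7, followed by 16, 17 and 15 on D8, and also overlapped (log2 difference -0.15, interval -0.45 to 0.15).

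Hoxb4, a gene of the hindbrain to spinal cord transition known for its role in blood stem cells, was the lowest of the 9 genes above 0. Its D7 libraries gave 6, 7 and 7, whereas its D8 libraries gave 5, 8 and 6, so that rounding alone could move a library by a large part of the spread. Hoxb5, a trunk gene of the neural crest and lateral mesoderm, had a value of 9 in each D7 library, followed by 11, 12 and 12 on D8. All D8 libraries were above all D7 libraries, with a log2 difference of 0.34 (SE 0.09, 95% interval 0.12 to 0.56) and an adjusted p of 0.0807 in limma, which missed the threshold.

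Hoxb6 and Hoxb7, which act in the trunk and the lateral mesoderm, had log2 differences of 0.12 each. Hoxb6 had values of 14, 13 and 14 on D7, followed by 14, 15 and 16 on D8. The days met at 14, and quantile normalization turned the sign of its difference (-0.04). Hoxb7 had values of 37, 31 and 37 on D7, followed by 38 in each D8 library. These days did not overlap, although the gap of 1 was no larger than the rounding error of a pair of values, and the low D7 value came from the library with the low size factor.

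At the posterior end of the compact block, Hoxb8 and Hoxb9 were the most abundant members. Hoxb8, which patterns the trunk skeleton and spinal cord, had values of 53, 51 and 52 on D7, followed by 49, 52 and 49 on D8. Its log2 difference was -0.06 with a 95% interval of -0.20 to 0.09, the narrowest among the members. Hoxb9, which patterns the thoracic skeleton, had values of 124, 113 and 136 on D7, followed by 129, 109 and 113 on D8, and the days overlapped (log2 difference -0.09, interval -0.30 to 0.13). It contributed 37.1% to 43.0% of the HoxB sum in each library. Hoxb13, the gene of the tail end of the axis, had only the value of 1 already given.

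**Figure D2:**
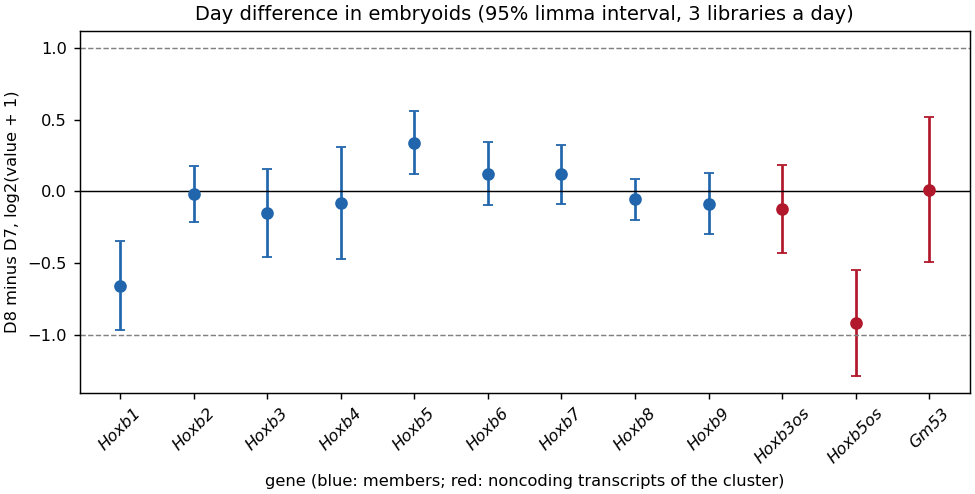
D8 minus D7 difference in embryoids on the log2(value + 1) scale with its 95% limma interval (3 libraries a day), for the 9 tested HoxB genes (blue) and 3 noncoding transcripts of the cluster (red), with dashed lines at the minimum fold. The intervals of Hoxb1 (-0.97 to -0.34) and Hoxb5os (-1.29 to -0.55) lie below 0, that of Hoxb5 (0.12 to 0.56) lies above 0, and the others span 0.

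Between D7 and D8, none of the 9 HoxB genes was called. By limma, 2 of the 9 (Hoxb1 and Hoxb5) had an unadjusted p under 0.05, and 23.3% of the 13064 genes tested did. Of all genes tested, 1.57% were called higher at D8 and 0.0383% lower. With no minimum fold, Hoxb1 was the member that passed, and 0.827% of all genes passed in its direction and 4.62% in the other. The libraries of the days did not overlap for Hoxb1 (D8 lower) or for Hoxb5 and Hoxb7 (D8 higher), against 6.26% of all genes with D8 lower and 18.2% with D8 higher. The median log2 difference was -0.06 over the 9 genes and 0.09 over all genes. The change of the embryoid to control difference from D7 to D8 was not called for any of the 9 genes either, and since the controls were at 0 it held the same differences, with an adjusted p of 0.0332 for Hoxb1 in limma.

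Markers of other cell types were compared between the days in the same fit, in which 1.57% of all genes were called higher at D8 and 0.0383% lower. The summed tail bud markers were 91 to 142 at D7 and 44 to 92 at D8, with none of 8 called. This count was not stable, since 0 to 4 of them were called lower over the alternatives. Their median log2 difference was -1.17, and 4 of the 8 had an unadjusted p under 0.05 in limma, against 23.3% of all genes. The summed paraxial mesoderm markers were 71 to 132 at D7 and 30 to 71 at D8, with 1 of 7 called lower and with Mesp2 listed at 0 in all libraries and Msgn1 at 0 in all D8 libraries. Hindbrain and spinal cord markers summed to 93 to 151 at D7 and 155 to 215 at D8 (1 of 13 called higher), and lateral plate and heart markers to 303 to 793 and 666 to 1593 (1 of 9 called higher). In controls the hindbrain and spinal cord list summed to 266 to 306, above its embryoid sums, with Sox2 as the largest part. Gut endoderm markers overlapped between the days (185 to 373 and 235 to 407), and forebrain markers stayed between 5 and 11, with 1 of 3 tested called higher. Each of these 4 calls was lost in at least 1 alternative, the counts running from 0 to 2 or from 0 to 1. The hindbrain and spinal cord sums did not overlap between the days, the paraxial sums met at 71, and the tail bud, heart, gut and forebrain sums overlapped or met. Their part in the Hoxb1 difference was not tested.

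The order of levels within the cluster was nearly the same on both days and did not follow gene position evenly. At D7 it ran from Hoxb9 through Hoxb8, Hoxb7, Hoxb2, Hoxb1, Hoxb3, Hoxb6, Hoxb5 and Hoxb4 to Hoxb13, and at D8 Hoxb1 stood below Hoxb3 and Hoxb6. Neighbours in this order did not overlap in 7 of 9 cases on each day. Hoxb2 and Hoxb1, and Hoxb1 and Hoxb3, overlapped at D7, and Hoxb3 and Hoxb6, and Hoxb6 and Hoxb1, at D8. Within the compact block the lowest level was in the middle, at Hoxb4, with the highest levels on either side at Hoxb2 and Hoxb9. Spearman's rho between level and position over the 9 genes, which share each library, was 0.494 to 0.617 in the 6 libraries.

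**Figure D3:**
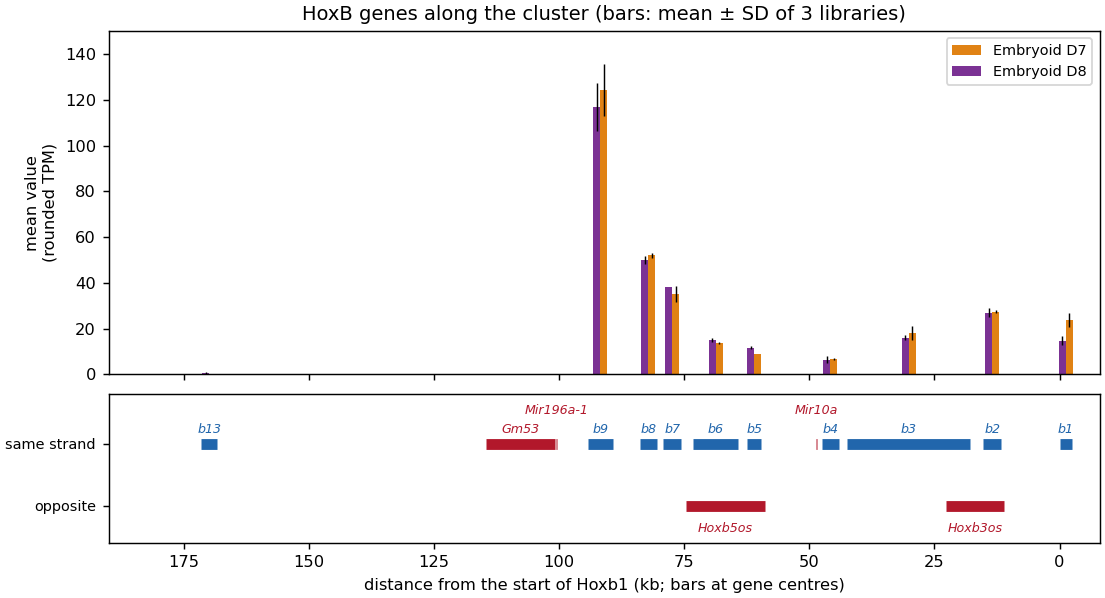
Upper plot, mean value (rounded TPM) ± SD of 3 libraries at D7 and D8 for each HoxB gene, placed at its distance in kb from the start of Hoxb1. Lower plot, gene bodies of HoxB genes (blue) and noncoding transcripts (red) by strand. Hoxb9 stands at 124 and 117, Hoxb4 is the low point of the compact block at 6.67 and 6.33, and Hoxb13 is isolated on the left.

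Transcripts that are interleaved with the Hox genes were measured too. Hoxb5os, an antisense RNA whose gene body covers Hoxb5 and Hoxb6 on the opposite strand (96291024 to 96306910), was listed at 0 in all controls and had values of 109, 136 and 120 on D7, followed by 51, 79 and 64 on D8. All D8 libraries were below all D7 libraries, and the mean was 122 ± 13.6 (SD, n = 3) at D7 and 64.7 ± 14 (SD, n = 3) at D8. The D8 to D7 difference in limma was -0.92 on the log2 scale (SE 0.16, 95% interval -1.29 to -0.55, adjusted p = 0.0283), short of the minimum fold, which it passed with median-of-ratios scaling (-1.01, adjusted p = 0.0372). The adjusted p was between 0.0524 and 0.116 when any 1 library was left out. Hoxb5, which lies inside its gene body, had the opposite sign (0.34).

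Hoxb3os, on the opposite strand to Hoxb2 and Hoxb3, had values of 8, 7 and 8 on D7, followed by 7, 8 and 6 on D8. Gm53, a long intergenic RNA between Hoxb9 and Hoxb13, had values of 26, 17 and 23 on D7, then 16, 25 and 26 on D8. For both the days overlapped, and both were at 0 in all controls. Both were called higher in embryoids on both days, which adds nothing to the values when the controls are at 0. Exons of Hoxb3os overlap 52.9% of the exonic bases of Hoxb3 and 27.3% of those of Hoxb2, and exons of Hoxb5os overlap 3.59% of those of Hoxb5 and none of those of Hoxb6. Whether the libraries or the counting kept strand is not stated, so reads in these shared bases cannot be told apart and the levels of Hoxb2 and Hoxb3 carry that uncertainty.

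A pair of miRNA genes lies between the Hox genes, and their mature sequences are printed because one of them has a site in Hoxb8. The sequences are from RefSeq on GRCm38, with the seed (bases 2 to 8) in capitals, and they share no seed.
mmu-miR-10a-5p: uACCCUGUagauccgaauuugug
mmu-miR-196a-5p: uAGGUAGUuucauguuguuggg
The 3′ end of the Hoxb8 transcript holds a site for miR-196a at chr11:96284888-96284909, plus strand, 421 bases after the coding sequence, with the bases opposite the seed in capitals.
Hoxb8 site: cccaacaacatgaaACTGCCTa
It matches the perfect complement of the miRNA at 21 of 22 bases, the exception being A18G, with the complement's base first and positions counted from 1 at the 5′ end of the site. The best match in the other 9 members was 13 or 14 of 22 bases. Mir196a-1, which lies between Gm53 and Hoxb9, was listed at 0 in 5 controls and at 6 in Control D8 replicate 2, whereas the D7 embryoids gave 5, 0 and 30, followed by 17, 38 and 29 on D8. All D8 embryoid values were above all control values. It was called higher at D8 (limma adjusted p = 0.00868) and not at D7 (0.0627), where it was called without Embryoid D7 replicate 2 (0.00962) or without Control D8 replicate 2 (0.0408). The gene is 102 bases long, so that its TPM value moves far with few reads. Mir10a, upstream of Hoxb4, was listed at 0 in all 12 libraries, and neither value measures the mature miRNA. Mir3063, a miRNA gene of the same list that lies inside the flanking gene Igf2bp1 and beyond the cluster, differed from the transcripts of the cluster in that it was present in controls (55 to 222) as in embryoids (69 to 136) and was called on neither day.

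Genes on either side of the cluster did not share the pattern of the HoxB genes. Of 13 flanking genes in the table, 9 were tested, and none was called at D7 and 1 was called higher at D8. That gene, Copz2, which encodes a coat protein of vesicles and hosts a miRNA, had embryoid values of 24, 28 and 25 on D7, followed by 38, 42 and 47 on D8, against 13 to 19 in the controls. Cbx1, a heterochromatin protein gene and the most abundant of those not called, was listed at 459 to 542 in controls and at 388 to 427 in embryoids. The neighbours at the ends of the cluster, Skap1 beyond Hoxb1 and Ttll6 beyond Hoxb13, and also Calcoco2 and Gip, were listed at 0 in all 12 libraries. Calcoco2 is used by most cells, so that a 0 in this table need not mean absence.

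Each paralog group has members in up to 4 clusters, and the HoxB genes were compared with their paralogs by the range of their libraries, without a test. All 29 HoxA, HoxC and HoxD genes in the table were listed at 0 in every control, and none of them was called between D7 and D8. The summed value in embryoids was 173 to 257 for HoxA, 197 to 243 for HoxC and 65 to 135 for HoxD, all below the 290 to 324 of HoxB. Hoxb9 was the highest of the 39 Hox genes on both days, above Hoxc10 (62 to 99 at D7 and 59 to 95 at D8) without overlap, and Hoxb8 followed Hoxc10 in the order of means.

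In paralog group 1, Hoxd1 had values of 4, 3 and 2 on D7, followed by 1, 2 and 3 on D8, so that its days overlapped and all its libraries were below those of Hoxb1. In group 4 the HoxB gene was the low one, since Hoxc4 was at 33 to 41 and 28 to 30, Hoxd4 was at 16 to 24 and 21 to 23, and Hoxa4 was listed at 0 throughout. In groups 8 and 9 the HoxB gene was above its paralogs in all libraries of both days, and in group 7 at D8 but not at D7, where Hoxb7 (31 to 37) and Hoxa7 (33 to 39) overlapped. At D8, Hoxb7 (38) exceeded Hoxa7 (23 to 31), Hoxb8 (49 to 52) exceeded Hoxc8 (27 to 31) and Hoxd8 (12 to 18), and Hoxb9 (109 to 129) exceeded Hoxa9 (37 to 53), Hoxc9 (23 to 24) and Hoxd9 (14 to 19). In group 3, Hoxb3 (15 to 17) met Hoxa3 (13 to 15) at 15 and was above Hoxd3 (11 to 13). In group 2, Hoxb2 (25 to 29) was below Hoxa2 (32 to 36), and in group 6, Hoxb6 (14 to 16) was below Hoxa6 (28 to 40) and Hoxc6 (41 to 49).

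**Figure D4:**
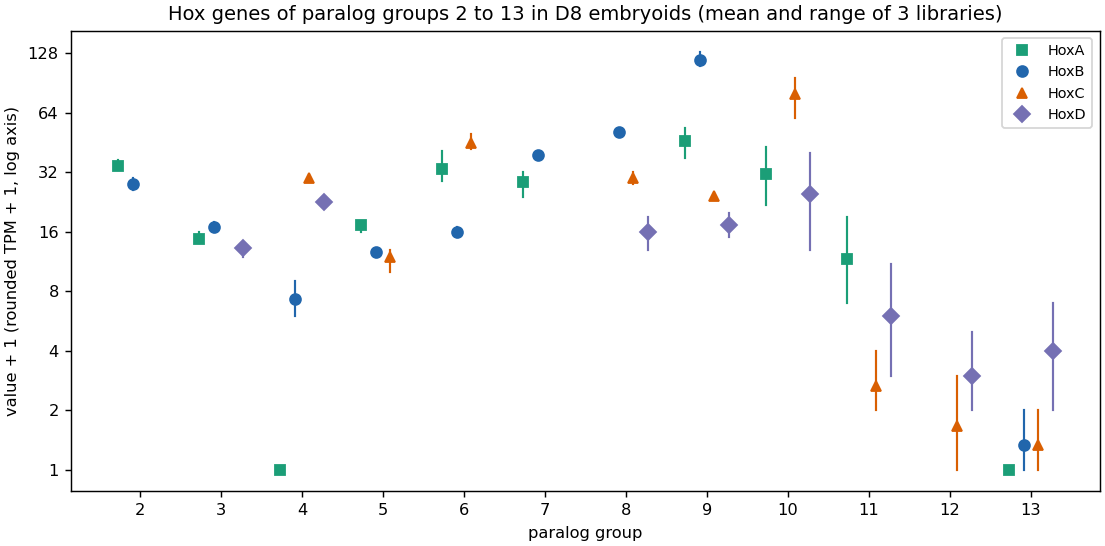
Value plus 1 (rounded TPM plus 1, log axis) of the Hox genes of the 4 clusters in D8 embryoids for paralog groups 2 to 13, as the mean (symbol) and range (line) of 3 libraries. HoxB genes (circles) have the highest mean in groups 3, 7, 8 and 9 and the lowest mean of those above 0 in groups 2, 4 and 6, and the groups from 11 to 13 are low with wide ranges.

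The most posterior genes of the other clusters were mostly highest in 1 library. Of the 10 HoxA, HoxC and HoxD genes of groups 10 to 13 with a value above 0, 9 were highest in Embryoid D8 replicate 3, the exception being Hoxc10, and the same library held the only Hoxb13 value. Among the D7 libraries, replicate 1 was the highest for Hoxd10 (22 against 10 and 8) and Hoxd11 (6 against 1 and 0). For Hoxd13 the D7 libraries gave 2, 0 and 0, whereas the D8 libraries gave 1, 2 and 6, and for Hoxc13 the only value above 0 was 1 in that library. Without Embryoid D8 replicate 3, Hoxb13 was listed at 0 in every library, whereas Hoxa10 (14 to 28), Hoxa11 (2 to 9), Hoxc10 (59 to 99) and Hoxd10 (8 to 22) were still above 0 in all embryoid libraries.

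The spread between libraries of one day differed among the HoxB genes, and its median lay within the quartiles of all genes. The pooled SD on the log2(value + 1) scale had a median of 0.10 over the 9 genes, from 0.04 for Hoxb8 to 0.22 for Hoxb4. Over genes with the same range of means, from 5 to 150, the median was 0.21 for 9 HoxA genes, 0.12 for 6 HoxC genes, 0.26 for 5 HoxD genes and 0.14 for all 8903 tested genes, whose quartiles were 0.09 and 0.21. The widest in the other clusters were Hoxa11 (0.89), Hoxc10 (0.35) and Hoxd10 (0.76), all of paralog groups 10 and 11, which HoxB lacks. Hoxb2, Hoxb5, Hoxb6 and Hoxb8 (0.04 to 0.08) were below the lower quartile of all genes. Hoxb1 (0.18) and Hoxb3 (0.17) were above the median of all genes, and Hoxb4, the lowest in level, was above the upper quartile. The difference in spread between the clusters was not tested.

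**Figure D5:**
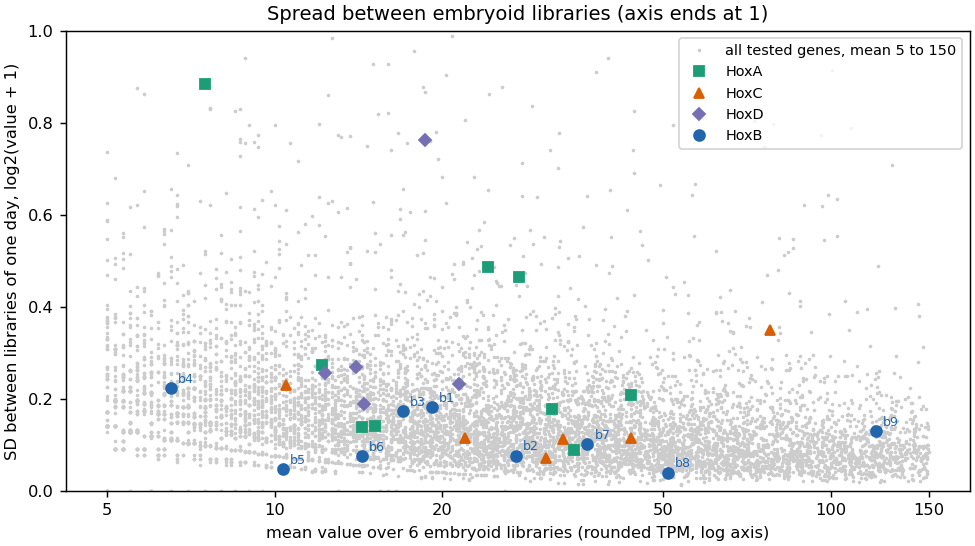
SD between embryoid libraries of the same day on the log2(value + 1) scale against the mean value (rounded TPM, log axis) of 6 embryoid libraries, for HoxB genes (labelled circles), the other Hox genes and all tested genes with a mean of 5 to 150 (grey). Genes above an SD of 1 are not shown. HoxB genes lie between 0.04 and 0.22, and the HoxA, HoxC and HoxD genes reach 0.89.

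The members did not follow a shared pattern across the 6 embryoid libraries. Over 36 pairs, Pearson's r had a median of 0.06, was above 0 for 20 pairs and below 0 for 16, and ran from -0.84 for Hoxb1 with Hoxb5 to 0.94 for Hoxb2 with Hoxb4. The mean log2(value + 1) of the 9 genes stayed between 4.51 and 4.67 in the 6 libraries. Among 10051 genes, those closest to this mean profile were Tdp1, a DNA repair enzyme gene (r = 0.997), Hyou1, an endoplasmic reticulum chaperone gene (0.989), Exosc4, of the RNA exosome (0.986), Samhd1, a dNTP hydrolase gene (0.979), and Ftsj1, a tRNA methyltransferase gene (0.976). All 5 were also present in the controls, where Tdp1 was at 80 to 91 and the HoxB genes were at 0. These correlations share 6 libraries and a narrow range, and are given as a description.

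The genes encoding DNA-binding partners of HOX proteins were present in both conditions. Of the 9 Meis, Pbx and Pknox genes, 2 were called higher and 1 lower in embryoids at D7, and 1 higher and 1 lower at D8. Meis1 was at 28 to 35 in the D7 and 37 to 42 in the D8 embryoids, against 4 to 8 in controls (log2 fold changes 2.53 and 2.23, limma adjusted p 3.08e-09 and 6.67e-09). Meis2 was called at D7 (1.90) and not at D8 (0.87), where its controls were at 27 or 28, and the change between the days was itself called (-1.02, limma adjusted p = 0.00504). Pbx4 was at 7 to 10 in embryoids and 15 to 22 in controls (-1.06 and -1.19), a call lost on both days with median-of-ratios scaling (-0.85 and -0.99), and Pbx2, the most abundant of those not called, was at 109 to 135 and 119 to 155. None of the 9 was called between D7 and D8.

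Among factors known to act on Hoxb control regions in the mouse embryo, 7 of 15 tested were called higher in embryoids on both days, and 2 at D7 and 1 at D8 were called lower. Over the alternatives the count of higher genes ran from 3 to 8 at D7 and from 3 to 9 at D8. Of all genes tested, 7.56% were called higher and 8.33% lower at D7, with 10.2% and 9.61% at D8. Genes of the list at 0 in all controls could only come out higher. Cdx2, a caudal homeodomain factor of the tail bud, had values of 46, 42 and 27 on D7, followed by 7, 27 and 18 on D8, and its paralog Cdx4 had values of 18, 9 and 7, then 1, 5 and 6, both with 0 in all controls. The days of Cdx2 met at 27 and those of Cdx4 did not overlap, and neither difference passed the test (limma adjusted p = 0.215 and 0.214). Rarg, a retinoic acid receptor gene, was at 10 to 30 in embryoids and 1 or 2 in controls (log2 fold change 3.04 at D7 and 2.93 at D8). Sox2, which activates Hoxb1 in the hindbrain and also marks neural progenitors, was at 27 to 58 in embryoids and 110 to 141 in controls (-1.89 and -1.29). Rxra and Rxrb, partners of the retinoic acid receptors, were not called. No factor of this list was called between D7 and D8, and Nr6a1, a nuclear receptor of trunk development chosen after its values were seen, was the one with an adjusted p under 0.05 (log2 difference -0.93, 0.0225), with embryoid values of 48, 36 and 54 on D7, then 23, 25 and 22 on D8. Nr6a1 passed the minimum fold as well with median-of-ratios scaling (-1.02, limma adjusted p = 0.0163), with quantile normalization (-1.04, 0.0202) and without Embryoid D7 replicate 2 (-1.10, 0.0138), whereas the adjusted p was up to 0.0978 when another library was left out. Its values differed between the control days too, from 46 to 48 at D7 to 18 to 20 at D8.

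Genes of retinoic acid metabolism were called higher for 6 of 8 tested at D7 and 5 of 8 at D8, and none lower. Over the alternatives 3 to 6 were called on each day. The share of all genes called higher was 7.56% at D7 and 10.2% at D8. Aldh1a2, the main enzyme of retinoic acid synthesis in the trunk, had values of 89, 82 and 102 on D7, followed by 174, 117 and 167 on D8, against 0 or 1 in controls. All D8 libraries were above all D7 libraries, and the difference of 0.72 had an adjusted p of 0.0483 in limma but was short of the minimum fold. For Aldh1a2 the adjusted p was 0.0520 to 0.174 when any 1 library was left out, and it was under 0.05 in 3 of 10 other alternatives. Cyp26a1, which degrades retinoic acid in the tail bud, was at 3 to 6 at D7, 2 or 3 at D8 and 0 in all controls. Crabp2, a retinoic acid-binding protein gene and the most abundant of the list, was not called (798 to 1244 in embryoids and 1239 to 1738 in controls).

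Chromatin regulators of the Polycomb and trithorax groups keep Hox genes silent or active. Of 19, 3 were called lower at D7 and 2 at D8 (0 to 3 and 0 to 2 over the alternatives), and none was called higher. Of all genes tested, 8.33% were called lower at D7 and 9.61% at D8, so the D8 count was near that share. Cbx8, which binds methylated histones in a Polycomb complex, was at 4 to 6 in the D7 embryoids, 8 or 9 in the D8 embryoids and 14 to 18 in controls (log2 fold change -1.38 at D7). Kmt2a, a trithorax methyltransferase gene, was at 4 in each D8 embryoid library and 9 to 11 in the D8 controls (-1.13), and was short of the minimum fold with median-of-ratios scaling (-0.95). Ezh2, the enzyme that deposits the Polycomb histone mark, was not called (263 to 317 and 371 to 382). No gene of this list was called between D7 and D8.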

How the data were processed

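Bulk RNA sequencing of 12 libraries, 3 per group, was used. Reads (75 bases, single-end) had been mapped by the authors to mm10 with STAR 2.6.1a, and the submitters' processing notes also name SAMtools 0.1.20, featureCounts and DESeq2. The deposited table holds whole numbers named a score here, because their unit was inferred from their sums as TPM rounded by the authors. Read depth is unknown, so no counting error could be computed. No column of other samples was present (0).

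The 10 members and all gene lists were chosen with earlier results of these data known. Values were analysed as log2(value + 1) in limma 3.58.1 (R 4.3.3, statmod 1.5.0) with trended, robust variances, over genes with a group mean above 1. Embryoids were compared with controls, and the change of that difference between days was taken, in one model of 4 group means, and D8 with D7 in the 6 embryoid libraries alone, since controls at 0 add no spread. To be called, a gene needed an adjusted p (Benjamini-Hochberg) below 0.05 together with a log2 fold change beyond 1 in size, not exactly 1. Named genes were all members, up to 3 called genes per list and direction, up to 2 abundant genes not called, paralogs, and the 5 genes closest to the members' mean profile. Nr6a1, Meis2, Uncx, Mir3063, Hoxa10, Hoxd11, Hprt, Mesp2, Msgn1, Hoxa11, Hoxc10, Hoxc13, Hoxd10, Hoxd13, Calcoco2, Gip and the neighbours at the cluster ends lie outside it and were named after their values were seen. Some genes of the lists are not reported here. In simulated data of 12402 genes, sets of 50 genes were changed by 0.25, 0.333, 3 and 4 times. The D8 to D7 test recovered 48, 47, 49 and 50 of them, with 5 false calls. The simulated spread was averaged over the 4 groups, controls included, and not over the embryoids alone. These changes were larger than any HoxB difference between the days, so recovery of differences of that size was not tested.

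Locations were from GENCODE on GRCm38 and sequences from RefSeq. Figures were drawn with matplotlib 3.10.9. Alternatives were pseudocounts of 0.5 and 5, no filter or a mean above 5, scaling by median-of-ratios or by quantiles, variances without trend, fits of 1 day or of all libraries, the replicate number as a block, omission of each library, and no minimum fold (chosen after seeing the data).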

Additional observations from a re-analysis of the deposited data

How the results depend on the processing

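With the controls at 0 throughout, no alternative could remove the calls of the 9 HoxB genes against controls, so that their count of 9 in each says nothing of stability. For D8 against D7 and for the change of the difference, 0 were called in every alternative except that with no minimum fold, where 1 (Hoxb1) was called in each. Leaving out a library gave 0 in both. The Hoxb1 difference was between -0.80 and -0.54 in all alternatives, with an adjusted p of 0.107 under the replicate block. Samples with the same number did not deviate together (r from -0.19 to 0.08 over 18 pairs), and with the replicate block all genes called for D8 against D7 changed from 205 higher and 5 lower to 48 and 0. Small differences turned in sign. Hoxb6 was at -0.038 for D8 against D7 and -0.046 for the change of the difference with quantile normalization. Leaving out a library gave -0.070 to 0.033 for Hoxb2 and -0.24 to 0.053 for Hoxb4, the highest without Embryoid D8 replicate 1. Gm53 was at -0.074 and -0.065 with median-of-ratios scaling, at -0.12 and -0.13 with quantile normalization and between -0.16 and 0.22 when a library was left out, below 0 without Embryoid D7 replicate 2 and without Embryoid D8 replicate 2 or 3. The cause was not tested.

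Counts over all genes moved more. For D8 against D7 they were 49 higher and 1 lower with a pseudocount of 5, 120 and 8 with median-of-ratios scaling, 108 and 16 with quantile normalization, 123 and 2 without trend, 348 and 18 in all 12 libraries, and 0 to 158 and 0 to 7 when a library was left out. With a pseudocount of 5 the counts against controls were 472 and 551 (D7), then 670 and 661 (D8), and with a mean above 5, 894 were higher at D8. With no minimum fold they were 2806 and 6160 (D7), then 3281 and 6110 (D8). For the change of the difference, 222 higher and 123 lower became 68 and 42 with a pseudocount of 5, 149 and 168 with quantile normalization, 80 lower with a mean above 5, and 738 and 510 with no minimum fold. Values of 1 or 2, such as Hoxb13, are limited by rounding and by the unknown depth.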
